A study of Danio rerio with 12 samples.

Results

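The neuron and glia genes described here are a list of 41 zebrafish gene names and IDs for proteins of axons, neuronal cell bodies, synapses, transmitter handling and glia. They were matched to the rows of the deposited count table by symbol with letter case ignored, by the symbol without its closing paralogue letter where the full name was missing, or by gene ID. The 41 entries took in 44 of the 30258 gene IDs in the table, since a shortened name brings in every copy with that symbol. Of these 44 genes, 10 belong to axons, 6 to the neuronal cell body, 12 to the synapse, 6 to transmitter synthesis and transport, and 10 to glia. A filter on low counts left 41 of the 44 genes for testing, and the other 3, which include copies named SLC17A6 (ENSDARG00000001127) and FABP7 (ENSDARG00000034650), had too few counts to pass it.

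The study measured polyadenylated RNA from wild-type zebrafish larvae raised at 28.5 °C, in 4 groups of 3 libraries that each pool 100 tails. In the cut groups the tail tip, about 200 µm long, was excised at the pigment gap at 72 h after fertilisation, and a further 200 µm of tissue was collected 18 h later. In the uncut groups the corresponding region was taken at 90 h from tails that had not been operated on. One cut and one uncut group were kept in 0.1% dimethyl sulfoxide (DMSO), the vehicle, and the other pair in 50 µM SB431542, which blocks the kinases of TGF-beta, activin and Nodal type I receptors, from 72 to 90 h. The series title names inhibition of TGF-beta signalling in the regenerating larval tail. The labels do not state that the pools of a group came from separate clutches, so the spread between libraries may be partly technical.

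The larval zebrafish tail holds the end of the spinal cord, with interneurons, motor neurons and radial glia, and peripheral sensory and lateral line axons that run out to the skin with their Schwann cells. Neurofilaments and microtubule proteins support the axon, the SNARE proteins and their regulators release transmitter at the synapse, and myelin proteins made by glia wrap axons. Many neurons that send axons into the tail tip have their cell bodies further forward, so a tail sample can lack the nucleus and much of the RNA of a cell whose axon it contains.

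Library totals ran from 7368986 to 12914981 estimated counts. Levels are given as CPM, each count relative to its library's total after scaling by the trimmed mean of M values (TMM). The libraries were made with a kit that reads the 3′ end of each transcript, so CPM can be compared between genes without a correction for length. One library stood apart from the rest. Replicate 4 of uncut SB431542 had a median correlation of 0.905 with the other libraries of the study, while each of the other 11 libraries lay between 0.934 and 0.944. Relative to the other pair of libraries in its group, its neuronal cell body genes had a median log2 level difference of -0.81 and its synapse genes of -0.50. Its glial genes had a median difference of 0.41 in the same terms, and its erythrocyte and cell cycle markers differed by 1.1 and 0.84. Cut SB431542 replicate 4 deviated from its own group in the same direction on the erythrocyte and cell cycle markers, by 0.70 and 0.61. Counts of members called, and the values under SB431542 that differ most, are also given without uncut SB431542 replicate 4.

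The summed level of the neuron and glia genes was lower after excision in DMSO than in uncut DMSO tails. It was 3861, 3549 and 3415 CPM in uncut DMSO replicates 1, 2 and 4, and 2365, 2353 and 2560.2 CPM in cut DMSO replicates 1, 3 and 4. With TMM scaling every cut library lay below every uncut library, and the same held for the summed level of each of the 5 roles. The TMM factors, by which CPM values are divided, ran from 0.81 to 0.90 in uncut DMSO and from 0.97 to 1.18 in cut DMSO. The separation of the members' sums thus depends on the scaling. In SB431542 the uncut libraries held 3386, 3543 and 3001 CPM in replicates 2, 3 and 4, and the cut libraries 2546, 2401 and 2326 CPM. Here too, with TMM scaling, the groups did not overlap for the members together, and the synapse, transmitter and glial sums also stayed apart. SNCG made up 449 of the 952 CPM of synapse genes in uncut SB431542 replicate 4. In cut SB431542 replicate 2 it made up 184 of 690 CPM, so the separation of the synapse sums rests on this gene. The axonal and neuronal cell body sums overlapped. Uncut SB431542 replicate 4 held 264 CPM of axonal genes, below the 277 to 319 CPM of the cut SB431542 libraries. In bulk tissue, fewer cells of a type and less RNA per cell cannot be told apart.

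**Figure D1:**
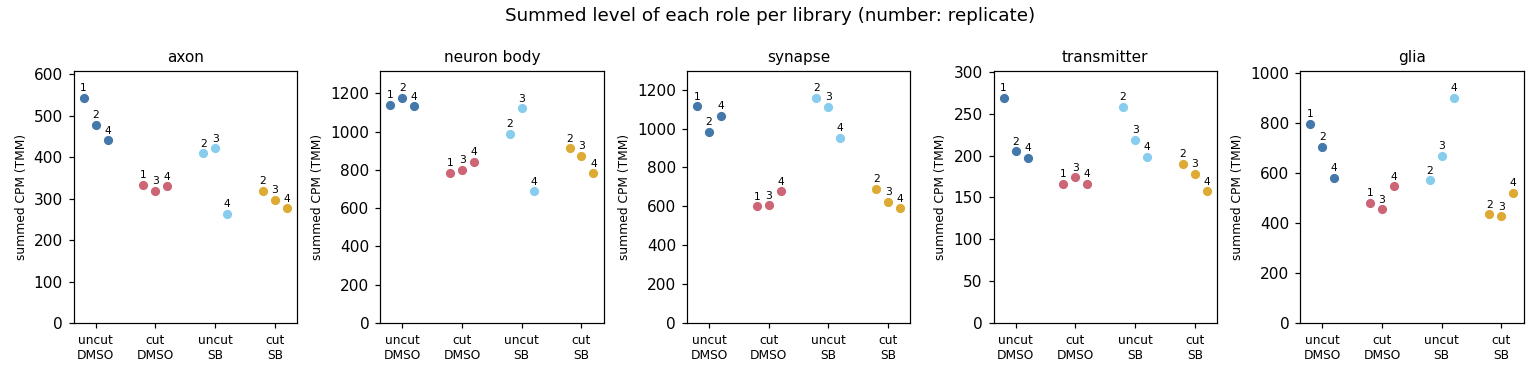
Summed CPM (vertical axis, linear, from 0) of each of the 5 roles in the 4 groups; points are single libraries marked with their replicate number. Synapse genes lie between 984 and 1114 CPM in uncut DMSO and between 601 and 678 CPM in cut DMSO, and uncut SB431542 replicate 4 is the low uncut point for neuronal cell body genes, at 687 CPM.

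Excision under DMSO was tested gene by gene with edgeR's quasi-likelihood test and Benjamini-Hochberg adjustment over all 13978 genes tested. Of the 41 tested members, 6 fell at an adjusted p under 0.05 and none rose. That is 14.6% of the members, against 5.58% of all genes called in either direction, 1.93% called lower and 3.65% called higher. The members were chosen with earlier results of these data known, so such shares, here and below, are no test of an excess among them. The 6 genes are nefma and nefmb among the axonal genes, CPLX2 and SNCG in the synapse list, GAD1 among the transmitter genes and mbpa among the glial genes. At an unadjusted p under 0.05, 18 members were lower and 1 was higher, against 1253 lower and 1605 higher of the 13978 genes. DESeq2 called 9 members lower and none higher. Over the 23009 genes with any count, a wider set than the 13978 tested by edgeR, it called 426 lower and 636 higher. The fold changes of 35 of the 41 members were negative, with a median log2 fold change of -0.39 where that of all genes was 0.02. For 25 members (61.0%) all 3 cut libraries lay below all 3 uncut libraries, against 13.1% of all genes. None lay wholly above, against 15.5% of all genes.

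These directions depend on how libraries are scaled, and the counts of members without overlap were taken with TMM scaling only. With scaling to the total count, an alternative added after the data were seen, the median of all genes moved to 0.36 and that of the members to -0.07, and 25 members were negative. The calls were then 1 member lower (SNCG) and 1 higher (gap43). Relative to the median of all genes, the members stood at -0.42 with total-count scaling and at -0.41 with TMM scaling.

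Axonal genes had a lower summed level in cut tails, and the larger part of the difference lay in nefma and nefmb. The sum was 543, 479 and 441 CPM in the uncut DMSO libraries and 334, 319 and 329 CPM in the cut DMSO libraries. Of the 10 axonal genes 2 fell under DMSO, 7 had negative fold changes, and the median log2 fold change was -0.22, which turned to 0.11 with total-count scaling. The called pair encodes neurofilament medium chains, intermediate filament proteins that set the calibre of axons.

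nefma measured 120.3, 124 and 101 CPM in uncut DMSO replicates 1, 2 and 4, and 50.3, 57.5 and 56.3 CPM in cut DMSO replicates 1, 3 and 4. In SB431542 it measured 78.4, 104 and 34.8 CPM in uncut replicates 2, 3 and 4, and 55.2, 51.1 and 32.2 CPM in the cut replicates of the same numbers. The DMSO groups did not overlap, while the low value of uncut SB431542 replicate 4 lay inside the cut SB431542 range. nefma fell 2.11-fold under DMSO (log2 fold change -1.08 ± 0.30 SE, edgeR adjusted p = 0.0448).

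nefmb measured 174, 166 and 145 CPM in uncut DMSO and 95.2, 79.0 and 70.6 CPM in cut DMSO. In SB431542 it measured 105, 127 and 52.9 CPM in uncut tails and 81.4, 75.6 and 44.9 CPM in cut tails. As for nefma, only the DMSO groups separated. nefmb fell 1.98-fold under DMSO (log2 fold change -0.99 ± 0.27, edgeR adjusted p = 0.0402).

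The light chain genes nefla and NEFL had log2 fold changes of -0.64 ± 0.30 and -0.35 ± 0.21 under DMSO, with edgeR adjusted p of 0.236 and 0.370, so neither passed. Of the other 6 axonal genes 3 had negative and 3 had positive fold changes under DMSO, and none passed. gap43, which encodes a growth cone membrane protein made in large amount by growing axons, measured 24.0, 19.0 and 15 CPM in uncut DMSO and 22.4, 29.6 and 26.1 CPM in cut DMSO. Its groups overlapped, and its log2 fold change of 0.44 ± 0.20 did not pass (edgeR adjusted p = 0.227), though it was the only member called higher with total-count scaling (0.77, adjusted p = 0.0277). It was picked out after its values were seen.

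Of the 2 STMN2 copies, which encode a microtubule-binding protein of growth cones, ENSDARG00000033234 had a log2 fold change of -0.32 ± 0.18 and ENSDARG00000070537 of 0.02 ± 0.25 under DMSO. The tubulin gene tubb5 and the microtubule-associated protein gene MAP1B had log2 fold changes of -0.13 ± 0.23 and -0.03 ± 0.28. None of these 4 genes passed the test. UCHL1, a deubiquitinating enzyme abundant in neurons, reached at most 2.66 CPM in a library, and its log2 fold change of 0.80 ± 0.58 did not pass either.

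Neuronal cell body genes were lower in every cut DMSO library than in any uncut one when summed, at 785, 800.4 and 841 CPM against 1139, 1176 and 1131 CPM. All 6 genes had negative fold changes with TMM scaling, with a median of -0.43. Fewer of the members were negative with total-count scaling, as given above. None of the 6 passed the test, although 4 had an unadjusted p under 0.05 and DESeq2 called 1 lower (atp1a3a, a sodium pump subunit of neurons). ELAVL4, which encodes an RNA-binding protein of differentiated neurons and had the highest level of all the members, measured 546, 602 and 598 CPM in uncut DMSO and 383, 413 and 379 CPM in cut DMSO. The groups were separate, with a log2 fold change of -0.57 ± 0.20 (edgeR adjusted p = 0.0954). In SB431542 ELAVL4 measured 447, 588 and 315 CPM in uncut tails and 428, 414 and 310.4 CPM in cut tails, and these ranges overlapped.

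rtn1a, a reticulon of the neuronal endoplasmic reticulum, measured 252, 274 and 264 CPM in uncut DMSO and 193, 180.4 and 211 CPM in cut DMSO. Its SB431542 levels were 222, 246 and 182 CPM in uncut tails and 212, 189 and 227 CPM in cut tails. The DMSO libraries separated and the SB431542 libraries did not. Its log2 fold change under DMSO was -0.43 ± 0.16 (edgeR adjusted p = 0.123). The smallest change of the role, that of ELAVL3, was -0.20 ± 0.25, and the largest, that of rtn1b, was -0.77 ± 0.27 (edgeR adjusted p = 0.103). The counts of ELAVL3 and rtn1b were not whole in any library, as occurs where reads are shared between similar genes, so their values are less certain.

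All 11 tested synapse genes had negative fold changes under DMSO with TMM scaling, from -0.28 to -1.41 on the log2 scale with a median of -0.43, and 2 of them fell. With total-count scaling fewer of the members were negative, so the smaller of these changes may not keep their sign. In 9 of the 11 all cut DMSO libraries lay below all uncut DMSO libraries, against 13.1% of all genes. SNCG (ENSDARG00000034423), named as a gamma-synuclein gene and listed here with the synapse genes, had the largest change of all the members. Which cells of the tail its counts came from was not tested, so its change need not be one of neurons.

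SNCG measured 425, 352 and 393 CPM in uncut DMSO and 125, 133 and 184 CPM in cut DMSO. In SB431542 it measured 511, 424 and 449 CPM in uncut tails and 184, 158 and 134 CPM in cut tails. All 6 cut libraries lay below all 6 uncut libraries, and uncut SB431542 replicate 4, at 449 CPM, was not low for this gene. SNCG fell 2.65-fold under DMSO (log2 fold change -1.41 ± 0.18, edgeR adjusted p = 7.95e-05) and 2.91-fold under SB431542 (-1.54 ± 0.18, adjusted p = 6.13e-05). The larger part of the difference in the summed synapse level lay in SNCG. Its mean was 390 of 1055 CPM in uncut DMSO and 147 of 628 CPM in cut DMSO. Under SB431542 its mean was 461 of 1074 CPM in uncut tails and 159 of 635 CPM in cut tails.

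CPLX2, a complexin that binds the assembled SNARE complex, measured 44.1, 45.3 and 43.8 CPM in uncut DMSO and 26.4, 27.5 and 29.1 CPM in cut DMSO. Its SB431542 levels were 41.4, 44.8 and 27.3 CPM in uncut tails and 23.8, 28.6 and 22.0 CPM in cut tails. Only uncut SB431542 replicate 4 kept the SB431542 ranges from separating. CPLX2 fell 1.61-fold under DMSO (log2 fold change -0.68 ± 0.19, edgeR adjusted p = 0.0440).

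The SNARE genes SNAP25 (2 copies) and vamp2, the calcium sensor gene SYT1, and the vesicle protein genes SV2A, SYN2 and sypa had log2 fold changes between -0.28 and -0.48 under DMSO, and none passed edgeR's test, while DESeq2 called SNAP25 ENSDARG00000020609 lower (adjusted p = 0.0468). sncb, a beta-synuclein gene picked out after its values were seen, measured 40.9, 46.8 and 41.8 CPM in uncut DMSO and 18.8, 20.4 and 22.6 CPM in cut DMSO. In uncut SB431542 it measured 43.4 and 55.3 CPM in replicates 2 and 3 but 4.74 CPM in replicate 4, and in cut SB431542 it measured 46.5, 30.9 and 27.8 CPM. Its DMSO groups were far apart, yet its log2 fold change of -1.07 ± 0.60 did not pass in the joint fit (edgeR adjusted p = 0.360). The adjusted p of the same comparison was 0.000913 without uncut SB431542 replicate 4.

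Transmitter genes covered both inhibitory and excitatory neurons. Of the 5 tested 1 fell under DMSO, 4 had negative fold changes, and the median log2 fold change was -0.39, or -0.06 with total-count scaling. GAD1 (ENSDARG00000027419), an enzyme that makes the inhibitory transmitter GABA, measured 34.4, 34.7 and 31.7 CPM in uncut DMSO and 20.6, 17.6 and 18.4 CPM in cut DMSO. In SB431542 it measured 43.2, 31.7 and 29.2 CPM in uncut tails and 25.3, 24.3 and 19.3 CPM in cut tails. Cut libraries lay below uncut libraries under each treatment. GAD1 fell 1.78-fold under DMSO (log2 fold change -0.83 ± 0.20, edgeR adjusted p = 0.0159), and its change under SB431542 was -0.60 ± 0.19 (adjusted p = 0.124).

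GAD2, which encodes the other GABA-making enzyme, did not share that direction, with 21.3, 15.1 and 18.7 CPM in uncut DMSO and 20.6, 19.4 and 15.9 CPM in cut DMSO. Its log2 fold change was 0.02 ± 0.24, and the difference between GAD1 and GAD2 was not tested. The deposited counts of both genes were not whole in any library, as occurs where reads are shared between similar genes, so their values are less certain.

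SLC6A5, the glycine transporter of inhibitory nerve endings, measured 152, 108 and 103 CPM in uncut DMSO and 88.1, 97.0 and 91.3 CPM in cut DMSO. Its SB431542 levels were 136, 119 and 96.9 CPM in uncut tails and 99.6, 88.1 and 78.8 CPM in cut tails. The DMSO ranges were separate but close, and its log2 fold change of -0.39 ± 0.18 did not pass (edgeR adjusted p = 0.236). SLC32A1, which loads GABA and glycine into vesicles, measured 41.2, 35.5 and 31.0 CPM in uncut DMSO and 25.7, 29.5 and 30.9 CPM in cut DMSO. Under SB431542 its levels were 34.7, 29.6 and 23.8 CPM in uncut tails and 27.1, 27.6 and 31.7 CPM in cut tails. Its log2 fold change was -0.32 ± 0.19 under DMSO and -0.02 ± 0.19 under SB431542, neither past the threshold. The glutamate loader SLC17A6 (ENSDARG00000041150) had log2 fold changes of -0.51 ± 0.26 under DMSO and -0.86 ± 0.26 under SB431542 (edgeR adjusted p = 0.279 and 0.0899).

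Of the 9 glial genes tested 1 fell under DMSO, 7 had negative fold changes, and the median log2 fold change was -0.40, or -0.05 with total-count scaling. mbpa, one of the myelin basic protein genes, measured 89.8, 91.8 and 99.2 CPM in uncut DMSO and 56.7, 59.6 and 58.4 CPM in cut DMSO. In SB431542 it measured 75.6, 87.9 and 102 CPM in uncut tails and 65.5, 51.7 and 55.7 CPM in cut tails. Cut and uncut libraries separated under each treatment. mbpa fell 1.61-fold under DMSO (log2 fold change -0.69 ± 0.17, edgeR adjusted p = 0.0183) and had a change of -0.62 ± 0.17 under SB431542 (adjusted p = 0.0602).

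Its paralogue mbpb measured 101, 97.4 and 95.0 CPM in uncut DMSO and 90.9, 71.8 and 77.4 CPM in cut DMSO. It measured 84.0, 92.8 and 119.6 CPM in uncut SB431542 and 64.7, 71.7 and 74.7 CPM in cut SB431542. These groups did not overlap either, and the log2 fold changes were smaller than those of mbpa, at -0.29 ± 0.17 and -0.49 ± 0.17, without passing.

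GFAP, the intermediate filament of radial glia, measured 460.2, 391 and 282 CPM in uncut DMSO and 249, 240.1 and 319 CPM in cut DMSO. In SB431542 it measured 302, 377 and 539.5 CPM in uncut tails and 219.8, 215 and 287 CPM in cut tails. The DMSO ranges overlapped and the SB431542 ranges did not. Its log2 fold change was -0.49 ± 0.22 under DMSO (edgeR adjusted p = 0.214) and -0.76 ± 0.22 under SB431542 (adjusted p = 0.0845). Without uncut SB431542 replicate 4, the highest GFAP library, the SB431542 value was -0.50 ± 0.21 (adjusted p = 0.207).

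Of the remaining glial genes under DMSO, SOX10, a transcription factor of myelinating glia and also of neural crest pigment lineages, had a log2 fold change of -0.74 ± 0.24 (edgeR adjusted p = 0.0713). FABP7 (ENSDARG00000007697), a fatty acid binding protein of radial glia, had one of -0.54 ± 0.19 (adjusted p = 0.105). The oligodendrocyte lineage factor OLIG2 had one of 0.29 ± 0.45. OLIG2 stayed under 4 CPM in every library, so a change of this size was not detectable for it at this depth.

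**Figure D2:**
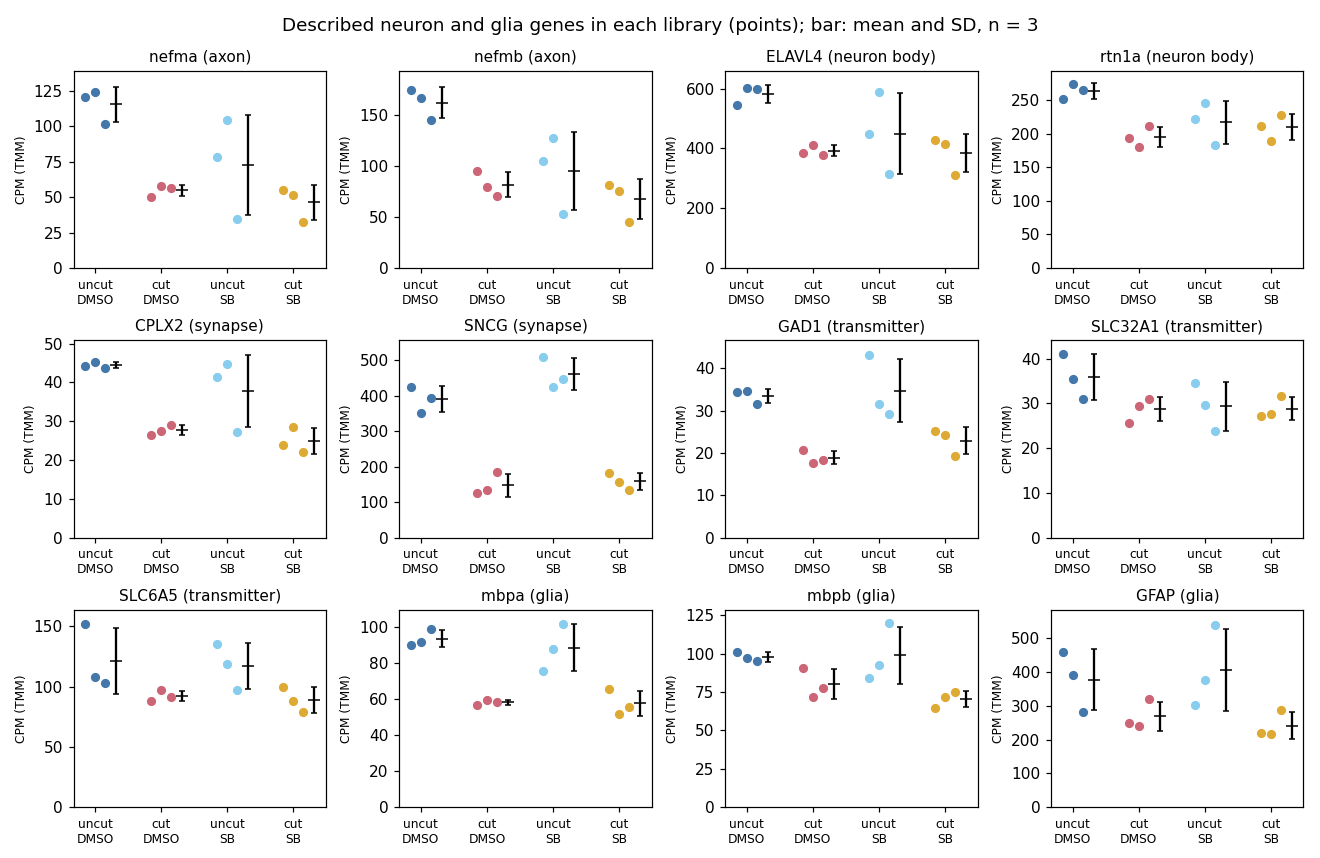
CPM (vertical axes, linear, from 0) in each of the 12 libraries for members called in at least 1 comparison or among the 2 with the highest mean level in their role; points are libraries in order of replicate number, and bars beside them are group means with SD. For SNCG all cut libraries lie at or below 184 CPM and all uncut libraries at or above 352 CPM, while uncut SB431542 replicate 4 is the low uncut point for nefma, at 34.8 CPM.

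Leaving out a single library changed how many members were called after excision under DMSO. Without uncut DMSO replicate 1 or 2, or without cut DMSO replicate 3, the count was 1, which was SNCG. Without uncut DMSO replicate 4 or cut DMSO replicate 1 it was 2 (SNCG and GAD1), and without cut DMSO replicate 4 it was 3 (SNCG, mbpa and SOX10). Cut SB431542 replicate 3 is in neither group compared and enters only through the shared fit, that is its spread, count filter and scaling. Without that library the count was 3 (SNCG, GAD1 and mbpa). It was 10 without uncut SB431542 replicate 4, which enters in the same way, namely the 6 genes above with ELAVL4, rtn1b, sncb and SOX10. SNCG was called in each of the 12 fits that left out a library. The calls over all genes moved with those of the members, from 321 (79 lower) without cut DMSO replicate 3 to 1432 (596 lower) without uncut SB431542 replicate 4, against 780 (270 lower) with every library.

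Excision under SB431542 compared libraries that are all different from those of the DMSO comparison, but the shared fit links the p-values of both. Of the 41 members 1 fell, SNCG, and none rose, so that 2.44% were called lower against 0.572% of all genes. Of all genes 2.06% were called in either direction and 1.49% higher. At an unadjusted p under 0.05, 14 members were lower and none was higher, against 1043 lower and 1196 higher of all genes. DESeq2 called 5 members lower and none higher, against 231 lower and 315 higher of the wider set of 23009 genes with any count. The members it called included SNCG, mbpa (DESeq2 adjusted p = 0.00597), GFAP (0.0309) and SLC17A6 ENSDARG00000041150 (0.0481). The fold changes of 32 members were negative, with a median of -0.31 where that of all genes was 0.00. With total-count scaling the medians were -0.01 for the members and 0.30 for all genes. In 12 members (29.3%) all cut libraries lay below all uncut ones, against 8.95% of all genes, and in 1 (gap43) they lay above, against 9.69%.

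By role, the median log2 fold changes under SB431542 were -0.27 for axonal, -0.29 for synapse, -0.40 for transmitter and -0.43 for glial genes. With total-count scaling the axonal and synapse medians turned to 0.02 and 0.00, while those of transmitter and glial genes were -0.10 and -0.14. Neuronal cell body genes had a median of -0.03, with 4 of 6 negative, no gene past the threshold and none with an unadjusted p under 0.05 or called by DESeq2. That value turned to 0.27 with total-count scaling and to 0.05 without uncut SB431542 replicate 3, and was -0.22 without uncut SB431542 replicate 4, with all 6 genes negative. The summed level of these genes in uncut SB431542 was 989, 1122 and 687 CPM in replicates 2, 3 and 4, against 912, 874 and 782 CPM in cut SB431542, so replicate 4 alone made the ranges overlap.

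When uncut SB431542 replicate 4 was left out, 4 members fell under SB431542. These were SNCG (log2 fold change -1.56), nefma (-0.99, edgeR adjusted p = 0.00804), nefmb (-0.79, adjusted p = 0.0448) and CPLX2 (-0.79, adjusted p = 0.0183), and 36 of 41 members were then negative, with a median of -0.36. Over all genes that fit called 399 of 14480, 126 of them lower, against 288 and 80 with every library. That fit kept cut SB431542 replicate 4, the lowest cut SB431542 library for all 4 members called, with nefma at 32.2 CPM and nefmb at 44.9 CPM. GAD1, mbpa and SLC17A6 ENSDARG00000041150 had values of -0.71 ± 0.20, -0.51 ± 0.17 and -0.56 ± 0.25 in it, and none of the 3 passed. Without uncut SB431542 replicate 2 the calls were 3, SNCG, mbpa and GFAP. Each other fit that left out a library called SNCG alone.

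**Figure D3:**
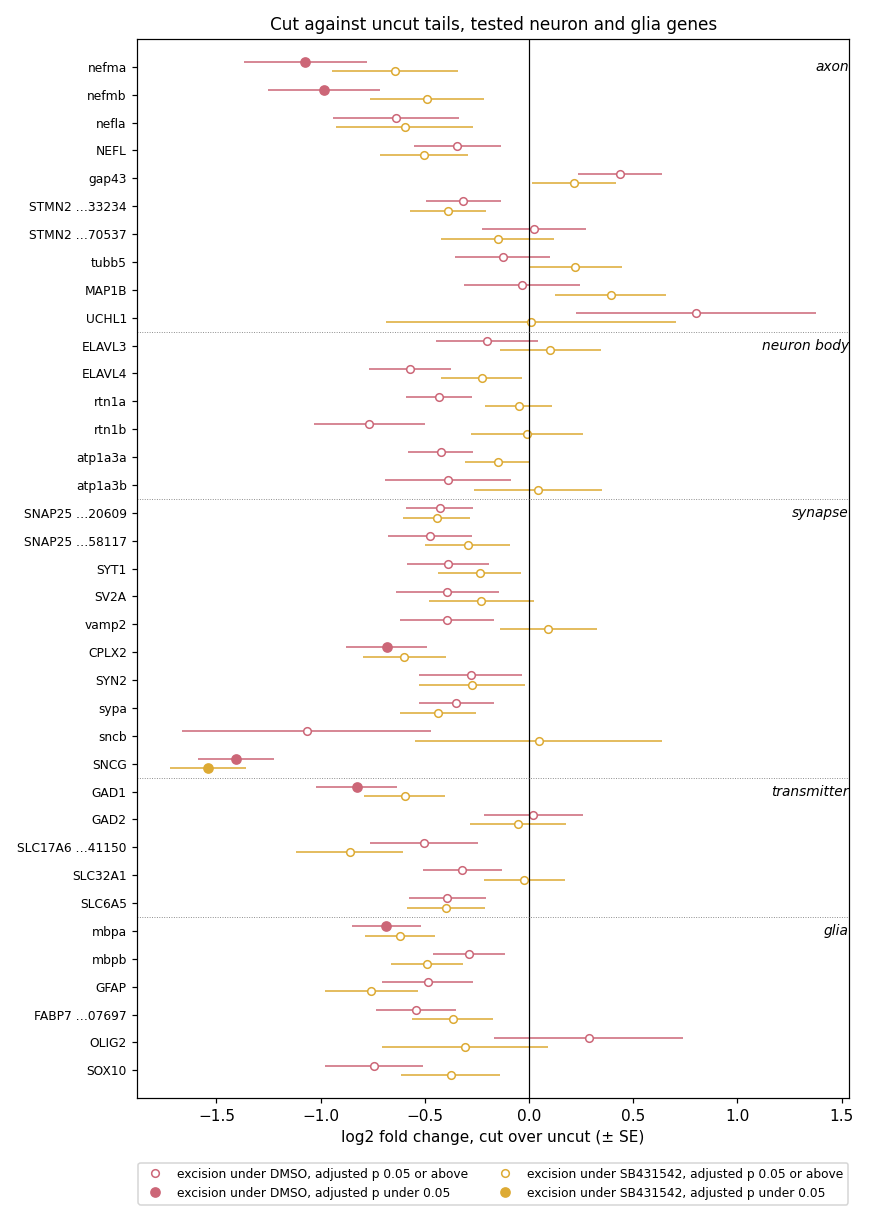
Log2 fold change of cut over uncut tails (horizontal axis) for tested members by role, with standard errors, under DMSO and under SB431542; filled points passed the adjusted p threshold of 0.05. SNCG stands apart at -1.41 and -1.54, and the neuronal cell body genes lie left of 0 under DMSO and around 0 under SB431542.

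Whether the effect of excision differed between SB431542 and DMSO was tested by the interaction term. No member passed it, none had an unadjusted p under 0.05, and neither DESeq2 nor limma-voom called any; of all genes tested, 0 passed (0% of 13978). The member with the lowest p was rtn1b, whose interaction was 0.76 ± 0.38 on the log2 scale (edgeR adjusted p = 0.910). All 6 neuronal cell body genes had positive interactions, from 0.27 to 0.76. With uncut SB431542 replicate 4 left out all 6 were still positive and smaller in all but atp1a3a, from 0.04 to 0.49. SNCG had an interaction of -0.13 ± 0.25, nefma of 0.43 ± 0.42 and mbpa of 0.06 ± 0.23. The same 3 values were -0.16 ± 0.26, 0.09 ± 0.28 and 0.18 ± 0.23 without that library, and no member passed.

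SB431542 was compared with DMSO separately in uncut and cut tails, in comparisons that share libraries with the excision comparisons. In uncut tails no member passed edgeR's test, 5 had an unadjusted p under 0.05 (4 lower and 1 higher), and neither DESeq2 nor limma-voom called any. At that unadjusted threshold 892 of all 13978 genes were lower and 1415 higher. Of all genes 0.0787% passed, 0.0143% lower and 0.0644% higher. The median log2 fold change of the members was -0.07, and 0.03 with total-count scaling, which moved the median of all genes to 0.11. In 4 members all SB431542 libraries lay below all DMSO libraries, against 8.43% of all genes, and in 2 they lay above, against 9.48%. These shares, 9.76% and 4.88% of the members, are close to or under those of all genes.

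Without uncut SB431542 replicate 3, 4 members passed in uncut tails, in a group that then had replicates 2 and 4 alone. Those lower were nefma (-1.03), nefmb (-1.04) and vamp2 (-0.93), while the remaining member called was higher. Over all genes that fit called 666 of 14521. Without uncut SB431542 replicate 4 no member passed in uncut tails, 5 had an unadjusted p under 0.05, and the members' median was -0.05. Over all genes that fit called 4 of 14480, and the number at the unadjusted threshold was not taken.

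In cut tails no member passed edgeR's test or limma-voom, 5 had an unadjusted p under 0.05 (1 lower and 4 higher), and DESeq2 called 1 (STMN2 ENSDARG00000070537, lower). Of all genes 0.286% passed, 0.107% lower and 0.179% higher. At an unadjusted p under 0.05, 947 of all 13978 genes were lower and 1191 higher. The median log2 fold change of the members was 0.01. All SB431542 libraries lay below all DMSO libraries in 1 member (2.44%, against 11.5% of all genes) and above them in 4 (9.76%, against 12.6%). The lowest p belonged to STMN2 ENSDARG00000070537, with 27.6, 27.5 and 48.0 CPM in cut DMSO and 17.3, 13.2 and 24.0 CPM in cut SB431542 (log2 fold change -0.92 ± 0.26, edgeR adjusted p = 0.106). The same gene measured 43.4, 29.3 and 28.9 CPM in uncut DMSO and 19.9, 22.6 and 18.1 CPM in uncut SB431542 (-0.75 ± 0.26, adjusted p = 0.172). In each tail state, every SB431542 library lay below every DMSO library.

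tubb5 lay the other way in cut tails, at 38.4, 29.2 and 28.2 CPM in DMSO and 48.6, 54.2 and 57.7 CPM in SB431542 (log2 fold change 0.74 ± 0.22, edgeR adjusted p = 0.128). Its counts were not whole in any library, as occurs where reads are shared between similar genes, so its values are less certain. Without uncut SB431542 replicate 4, which enters this comparison only through the shared fit, 3 members passed. They were STMN2 ENSDARG00000070537 (edgeR adjusted p = 0.0473), tubb5 (0.0405) and sncb (0.76, 0.0351). Over all genes the calls went from 40 of 13978 to 473 of 14480 in that fit. STMN2, tubb5 and sncb were picked out here after their values were seen.

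**Figure D4:**
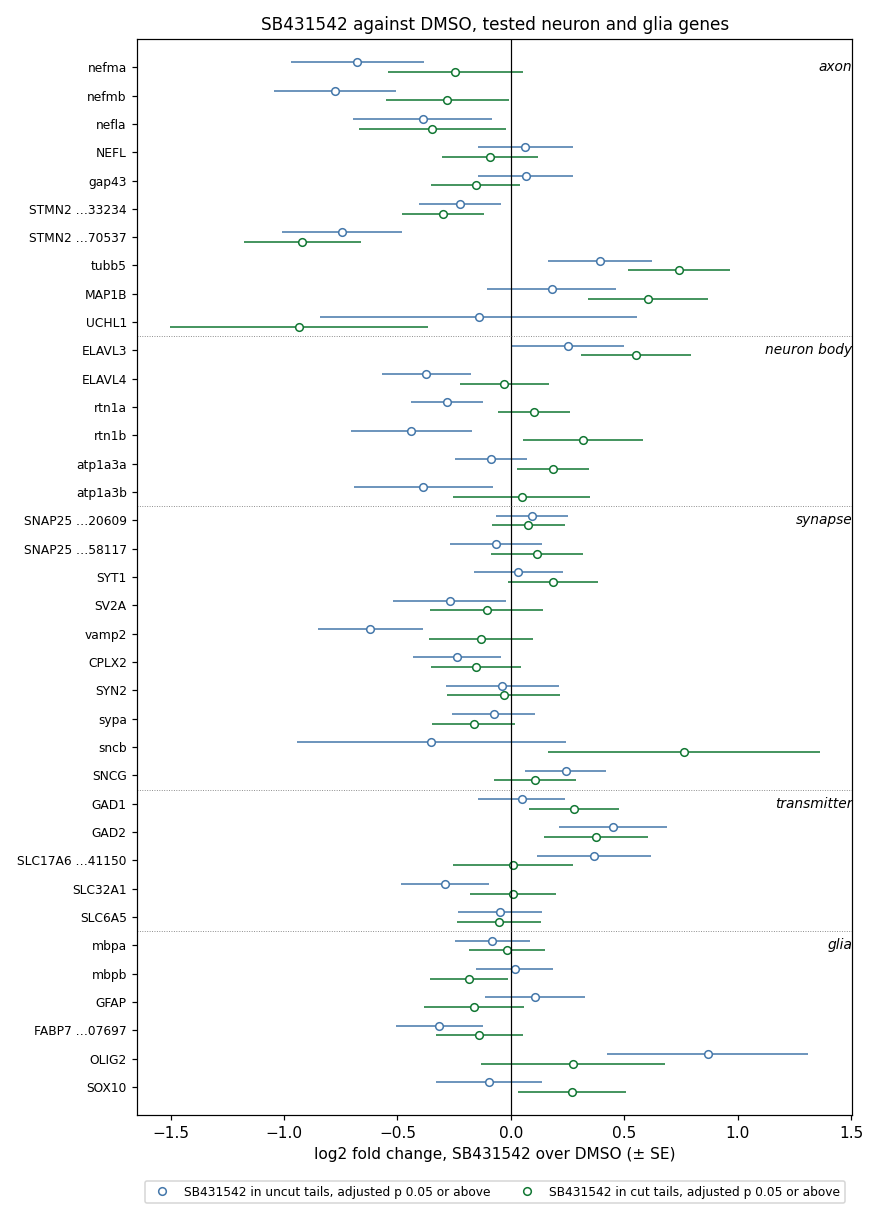
Log2 fold change of SB431542 over DMSO (horizontal axis) for tested members by role, with standard errors, in uncut and in cut tails. No point passed the adjusted p threshold of 0.05; STMN2 ENSDARG00000070537 is low in both, at -0.75 and -0.92.

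Other genes of the nervous system, 144 tested genes in 10 lists that hold no member, were compared in the same fit. Under DMSO 8 rose and 3 fell, with 24 lower and 15 higher at an unadjusted p under 0.05 and a median log2 fold change of -0.16. Of all 13978 genes tested 510 rose and 270 fell under DMSO. Under SB431542 5 of the further neural genes rose and none fell, with 19 lower and 15 higher at an unadjusted p under 0.05 and a median of -0.07. Of all genes 208 rose and 80 fell under SB431542. The lists of further synaptic genes and of motor neuron genes had medians close to that of the members under DMSO, at -0.41 over 20 genes and -0.52 over 9 genes, with no gene past the threshold in edgeR or limma-voom. At an unadjusted p under 0.05, 3 of the synaptic genes were lower, and of the motor neuron genes 4 were lower and 1 higher; DESeq2 called 1 motor neuron gene lower. Total-count scaling moved these medians to -0.07 and -0.18.

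Within the motor neuron list, ISL1, a transcription factor of motor and sensory neurons, went from a mean of 18.1 to 11 CPM under DMSO (log2 fold change -0.73 ± 0.22, edgeR adjusted p = 0.0612). SLC18A3 and CHAT, which load and make acetylcholine, had log2 fold changes of -0.53 ± 0.19 and -0.52 ± 0.19 (adjusted p = 0.112 and 0.118). This list had 3 genes called lower under DMSO without uncut SB431542 replicate 4. Under SB431542 the median of the list was -0.43, while that of the further synaptic genes was 0.13, or -0.10 without uncut SB431542 replicate 4.

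Genes of a further axon and cytoskeleton list moved in different directions, and which cells their counts came from was not tested. tuba1b, an alpha-tubulin gene, rose 2.66-fold under DMSO (edgeR adjusted p = 0.000551) and had a log2 fold change of 1.44 ± 0.22 under SB431542 (adjusted p = 0.000935). tuba1c, a second alpha-tubulin gene, fell 1.69-fold under DMSO (adjusted p = 0.0318), and DPYSL3, a microtubule regulator of growth cones, fell 1.51-fold (adjusted p = 0.0414). The median of the 22 genes was -0.31 under DMSO, or 0.03 with total-count scaling.

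Among 19 genes known to respond to axon injury or to accompany regrowth, 3 rose under DMSO and none fell, with 5 higher and none lower at an unadjusted p under 0.05, and DESeq2 called 4 higher and none lower. The median log2 fold change was 0.38. SOCS3 (ENSDARG00000026611), whose product damps JAK-STAT signalling downstream of cytokine receptors, rose 6.42-fold (edgeR adjusted p = 1.80e-05), and its second copy ENSDARG00000025428 rose 3.38-fold (adjusted p = 0.0496). tubb6, a beta-tubulin gene, rose 5.17-fold (adjusted p = 0.00934) from a mean of 0.557 CPM. SOCS3 is also induced by cytokines in leukocytes and wound tissue, so these genes are not specific to neurons.

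Of 12 somatosensory neuron genes 2 rose under DMSO, trpv1, a heat-gated channel of nociceptors (2.95-fold, edgeR adjusted p = 0.0131), and PRDM1, a transcription factor used by Rohon-Beard sensory neurons and by other embryonic cells (2.59-fold, adjusted p = 0.0246). Of the 12, 8 had negative fold changes, with a median log2 fold change of -0.08. At an unadjusted p under 0.05, 3 were lower and 3 higher. Of 22 genes of radial glia and neural progenitors 2 rose, both copies of GLUL, the glutamine synthetase of glia and other tissues. Of the 22, 16 had negative fold changes, with a median of -0.13. At an unadjusted p under 0.05, 4 were lower and 2 higher. GLUL ENSDARG00000100003 rose 2.03-fold (adjusted p = 0.00121), while GLUL ENSDARG00000099776 rose 1.56-fold (adjusted p = 0.0278). VIM, a further radial glial filament gene that other tissues also express, had a log2 fold change of -0.71 ± 0.23 (adjusted p = 0.0727).

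Of 8 Schwann cell and oligodendrocyte genes 1 fell under DMSO, pmp22a, a peripheral myelin protein gene also expressed in epithelia (1.71-fold, edgeR adjusted p = 0.00852). The 10 neuropeptide and spinal interneuron genes included chgb, a granin of secretory vesicles, at a log2 fold change of -1.09 ± 0.32 (adjusted p = 0.0560). In this list, in the 12 transmitter receptor and channel genes and in the 11 lateral line genes, edgeR and limma-voom called none; at an unadjusted p under 0.05 there were 2, 3 and 1 genes, and DESeq2 called 1, 0 and 0. Their medians under DMSO were -0.28, -0.09 and -0.08.

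**Figure D5:**
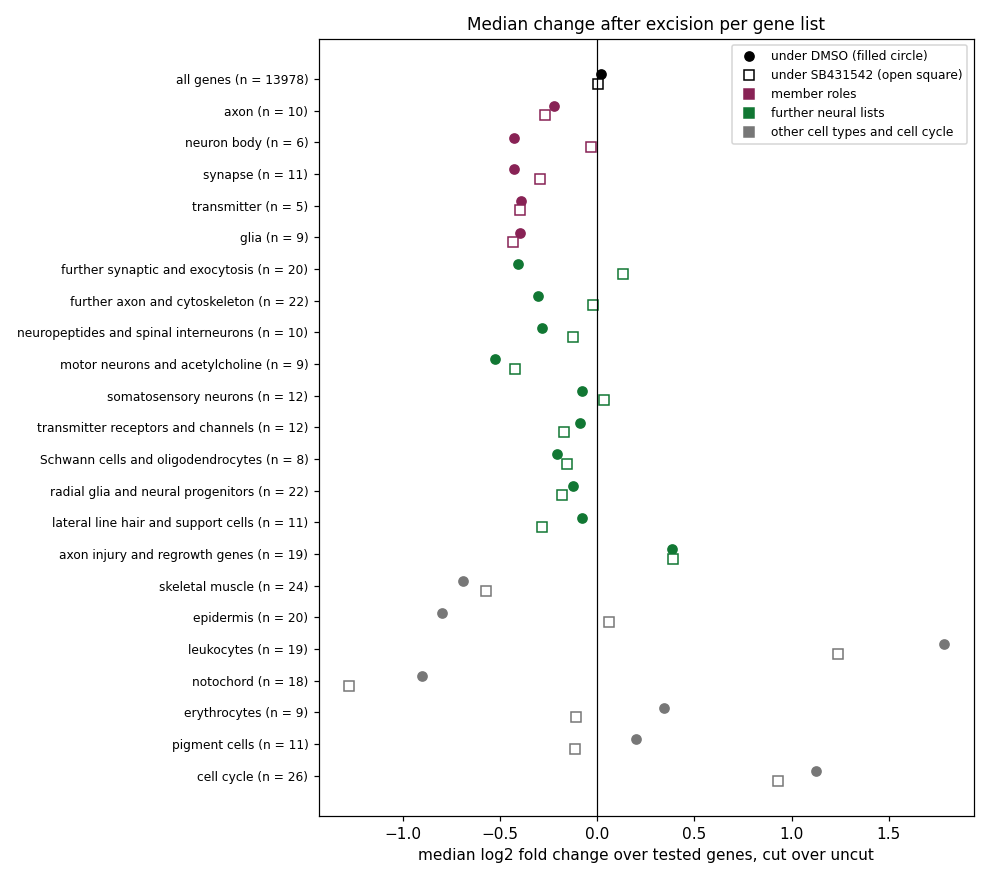
Median log2 fold change of cut over uncut tails (horizontal axis) under DMSO and under SB431542 for the roles of the members, the further neural lists and marker lists of other tissues and cell states; each point is the median of 1 list. Synapse genes lie at -0.43 and -0.29, skeletal muscle at -0.69 and -0.57, and leukocyte markers at 1.78 and 1.24.

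Markers of other cell types moved with excision as well, and their part in the neuronal and glial values was not tested. Under DMSO 12 of 24 skeletal muscle markers and 8 of 20 epidermal markers fell, and none of either list rose. Of 18 notochord markers 9 fell and 3 rose. In contrast, 15 of 19 leukocyte markers and 9 of 26 cell cycle markers rose, and none of either list fell. Of all genes 1.93% were called lower and 3.65% higher. The summed muscle markers took 189332 to 212124 CPM in uncut DMSO and 99905 to 141620 CPM in cut DMSO, and 181846 to 208904 CPM and 116186 to 139246 CPM in uncut and cut SB431542. Leukocyte markers summed to 736 to 1087 CPM in uncut DMSO and 2196 to 2334 CPM in cut DMSO, and to 674 to 897 CPM and 1223 to 1754 CPM under SB431542. Epidermal markers summed to 22436 to 35102 CPM in uncut DMSO, 12688 to 15835 CPM in cut DMSO, 22631 to 28010.0 CPM in uncut SB431542 and 16205 to 19997 CPM in cut SB431542. Notochord markers summed to 4504 to 6788 CPM, 3066 to 3679 CPM, 5055 to 6435 CPM and 3176 to 3306 CPM in the same order of groups.

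The median log2 fold changes under DMSO were -0.69 for muscle, -0.80 for epidermis, -0.90 for notochord, 0.34 for erythrocytes and 0.20 for pigment cells. The members' median of -0.39 was thus nearer 0 than those of muscle, epidermis and notochord. Under SB431542 these medians were -0.57, 0.06, -1.28, -0.11 and -0.11. Counts of 0 in all 12 libraries were found for the pigment cell genes MITF (ENSDARG00000037833), pmelb and OCA2 and for the cell cycle gene bub1, and for no gene of the other marker lists.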

How the data were processed

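Per the labels' protocols, pooled tails were extracted in TRI Reagent and sequenced from Lexogen QuantSeq 3′ FWD libraries. The authors deposited estimated counts per Ensembl gene, not normalized, of which 23.1% to 26.7% per library were not whole; fractional values occur where reads are shared between genes. Per the submitters' processing notes, GRCz11 was the reference; the sources used here name no aligner or counter. The authors' deposited normalized table was not used. Gene symbols came from a supplied table of gene IDs and names, which named 23598 of 30258 IDs (78.0%). Among the member IDs, 10 share a symbol with another copy and are given with their ID. Counts that were not whole in at least 1 library occurred in 17 members. For NEFL, ELAVL3, rtn1b and sypa, as for GAD1, GAD2 and tubb5, this held in all 12 libraries.

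Estimated counts were rounded, filtered (filterByExpr) and scaled by TMM. All 12 libraries entered 1 fit of the 4 group means with edgeR 4.0.16 in R 4.3.3 (robust quasi-likelihood). Tests were two-sided, adjusted by Benjamini-Hochberg over 13978 genes, with a threshold of 0.05. DESeq2 1.42.0 and limma-voom 3.58.1 were alternatives. The script was tested on simulated data. Depth of 7368986 to 12914981 counts sets the precision of each CPM value, and group spread is over 3 libraries. Members called in any comparison, and the 2 with the highest mean CPM in each role, are given in every library; of each further list at most the 3 genes with the smallest p under DMSO are named. The members and lists were chosen with earlier results of these data known. Some members enter every count, median and sum but are not reported here by name or drawn singly. No sequences are printed.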

Additional observations from a re-analysis of the deposited data

How the results depend on the processing

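The number of neuron and glia genes called was recomputed under 10 other settings per comparison (9 for the interaction) and with each library left out in turn. After excision under DMSO, against a main count of 6, it was 2 with total-count scaling (1958 of all genes called, 98 lower, against 780 and 270) and 10 with only the groups compared in the fit (1468 and 607), and ranged from 1 to 10 when a library was left out. Under SB431542, against 1, it was 5 with DESeq2 and 2 without a count filter, and ranged from 1 to 4 when a library was left out. The calls over all genes were 546 with DESeq2 and 348 without a count filter, against 288. For SB431542 in cut tails, against 0, it was 1 with DESeq2 and 3 with only the groups compared, and ranged from 0 to 3. Over all genes the calls were 323 with DESeq2 and 537 with only the groups compared, against 40. In uncut tails the number of members called was 0 in all 10 settings and ranged from 0 to 4, and for the interaction it was 0 in every setting run. The causes of these shifts were not tested. No fold change of a called member changed sign, and SNCG passed in all settings run for both excision comparisons.

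Replicate numbers are shared in part between groups, but not every same-numbered pair deviated together: correlations ran from -0.0498 to 0.343, the highest between cut and uncut SB431542 replicate 4, so the numbers were not taken as pairs. A fit with the replicate number as a block called 5 members after excision under DMSO (CPLX2 no longer passed), 1 under SB431542, and 0 in the 3 other comparisons. Levels under about 4 CPM limit what can be seen for UCHL1 and OLIG2, and each group has 3 pools only.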
